A study of Bos taurus with 8 samples.

Results

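The proteasome subunit genes were taken by name from the scanner files: every probe whose gene name starts with PSMA, PSMB, PSMC, PSMD or PSME, without PSMB8 and PSMB9. That rule took 41 genes, each with 1 probe, out of 15008 probes and 14952 gene names on the array. PSMC3IP, a recombination protein whose name only begins like a subunit, was among them and was set aside (WP minus control 0.13 ± 0.26 log2, SD, n = 4, limma adjusted p = 0.780), which left 40 proteasome genes. They comprise 7 genes of the alpha ring and 7 of the beta ring of the 20S core, 2 further beta subunits (PSMB10 and PSMB11), 9 genes of the base and 8 of the lid of the 19S particle, 3 assembly chaperones and 4 activators. A gene was tested when its probe was well above background on 4 or more of the 8 arrays, and 36 of the 40 were. PSMA1, PSMA7, PSMB3 and PSMD7 were not.

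The RNA came from the rumen epithelium of Holstein bulls with a rumen fistula, with a mean age of 7.4 ± 0.3 months and a mean body weight of 215.2 ± 20.4 kg in the series of 5 bulls. All were fed a high-grain diet. The control form contained corn flakes, and in the other form wood kraft pulp (WP), the cellulose fibre of pulped wood, took the place of 50% of the corn flakes. The diets were switched after 14 days with no wash-out between them, so each animal received both. Arrays of 4 animals, calves 21, 23, 24 and 25, were analysed here, 4 arrays per diet. The sources used here do not give which diet each calf had first.

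The 26S proteasome degrades proteins tagged with ubiquitin. Its barrel-shaped 20S core has outer rings of alpha subunits, which gate entry, and inner rings of beta subunits, 3 of which cut the protein chain. The 19S particle caps the core: its base holds ATPases that unfold substrates, and its lid removes the ubiquitin. Activators of the PA28 and PA200 type can take the place of the 19S cap, and interferon gamma exchanges the catalytic beta subunits for inducible ones. Rumen epithelium is a layered epithelium that absorbs fermentation acids and renews itself from a basal layer.

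Probe sequences are shown for the 4 genes whose values need the probe in view. PSME4 had the smallest p of the group, PSMB10 is an inducible beta subunit with a low signal, PSMB6 has the only tested probe designed from an expressed sequence tag (EST, a single-pass cDNA read), and PSMD3 had the widest spread between calves. Each is 60 bases, as listed in the scanner files, with no base singled out by capitals:
PSME4: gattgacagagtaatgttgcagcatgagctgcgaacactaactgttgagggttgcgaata
PSMB10: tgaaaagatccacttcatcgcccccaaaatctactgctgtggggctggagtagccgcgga
PSMB6: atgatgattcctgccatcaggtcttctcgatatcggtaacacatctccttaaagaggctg
PSMD3: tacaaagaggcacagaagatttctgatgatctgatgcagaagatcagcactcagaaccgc

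In the array design, on build UMD3.1, the PSME4 probe lies at chr11:36457149-36457483 on the minus strand and the PSMB10 probe at chr18:35542097-35542267 on the minus strand. The PSMB6 probe lies at chr19:27199308-27199367 and the PSMD3 probe at chr19:40965864-40967152, both on the plus strand. The positions of PSME4, PSMB10 and PSMD3 span 335, 171 and 1289 bases for a 60-base probe, so these probes join separate stretches of the genome, while that of PSMB6 spans 60. The exon or UTR of each probe was not analysed here.

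A level is log2 of the background-corrected spot signal relative to the 75th percentile of its array, so a level of 0 is that percentile. It describes a probe and not the abundance of its transcript, so genes are not ranked by it; it serves only to sort probes by signal. All 8 arrays were on 1 slide, with 9406 to 12087 spots well above background, and the number of arrays limits the precision. The WP array of calf 24 stood apart: its negative controls read 4.06 against 1.20 to 1.90 on the other arrays. Its control spots named E1A had a median signal of 40.7, against 1.36 to 1.97 on the other arrays. Of all 97 spots flagged as outliers, 73 were on it. The epithelial markers were well above background on all arrays for 12 of 12 genes. Their signals relative to the 75th percentile, not in log2, summed to 469 to 705 on WP arrays and 553 to 660 on control arrays. The brightest genes weigh most in such a sum. Markers of other cells that the tissue can hold were also present, although CDH5, PDGFRB, CNN1, DES, CD163, CD3E, CD4, GNLY, CD79A and MS4A1 were not well above background on enough arrays to be tested. Fewer cells of a type and less RNA per cell cannot be told apart in these samples.

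Differences between diets were small throughout the proteasome, and most lay on the lower side on WP. Of the 36 tested genes, 28 had a lower mean on WP, and of all tested probes 35.6% did. The median difference, WP minus control within calf, was -0.089 log2 for the proteasome genes and 0.087 for all 10236 tested probes. The scaling set where 0 lies: with quantile scaling the proteasome genes had a median of -0.080 and all probes -0.016, with 25 of the 36 genes lower, and with array median scaling the medians were -0.33 and -0.15, with 34 lower. In limma, with Benjamini-Hochberg adjustment over all probes, no proteasome gene had an adjusted p under 0.05, and 0 of all probes did (0%). At an unadjusted p under 0.05 there was 1 gene, PSME4, which was higher on WP, where 6.99% of all probes were called in either direction and 5.24% as higher.

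Markers of other cell types also leaned to one diet, some by more than the proteasome genes. The median difference was 0.61 for fibroblast and connective tissue markers (8 of 9 higher on WP), 0.47 for endothelial markers (6 of 6 higher) and 0.42 for smooth muscle markers (4 of 4 higher). It was -0.075 for epithelial markers (8 of 12 lower), -0.091 for macrophage and dendritic markers (3 of 5 lower), -0.14 for T and NK cell markers (4 of 6 lower) and -0.27 for B and plasma cell markers (3 of 4 lower). Of all tested probes 64.4% were higher and 35.6% lower on WP, with a median of 0.087. Among all probes below a level of -2 the median was 0.27, and 19.7% were lower. The part of these cell types in the proteasome values was not tested.

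The lean to the lower side differed between calves. In calf 21 the median difference over the 36 genes was -0.21, and 29 genes were lower on WP, against 40% of all probes. Calf 23 had a median of -0.040 with 22 genes lower (46.5% of all probes), and calf 24 a median of -0.078 with 26 genes lower (35.7%). In calf 25 the median was 0.046, with 15 genes lower (50%). The SD of the 4 calf medians was 0.11. Without calf 21 the median was -0.051, and 25 of the 36 genes were lower.

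**Figure D1:**
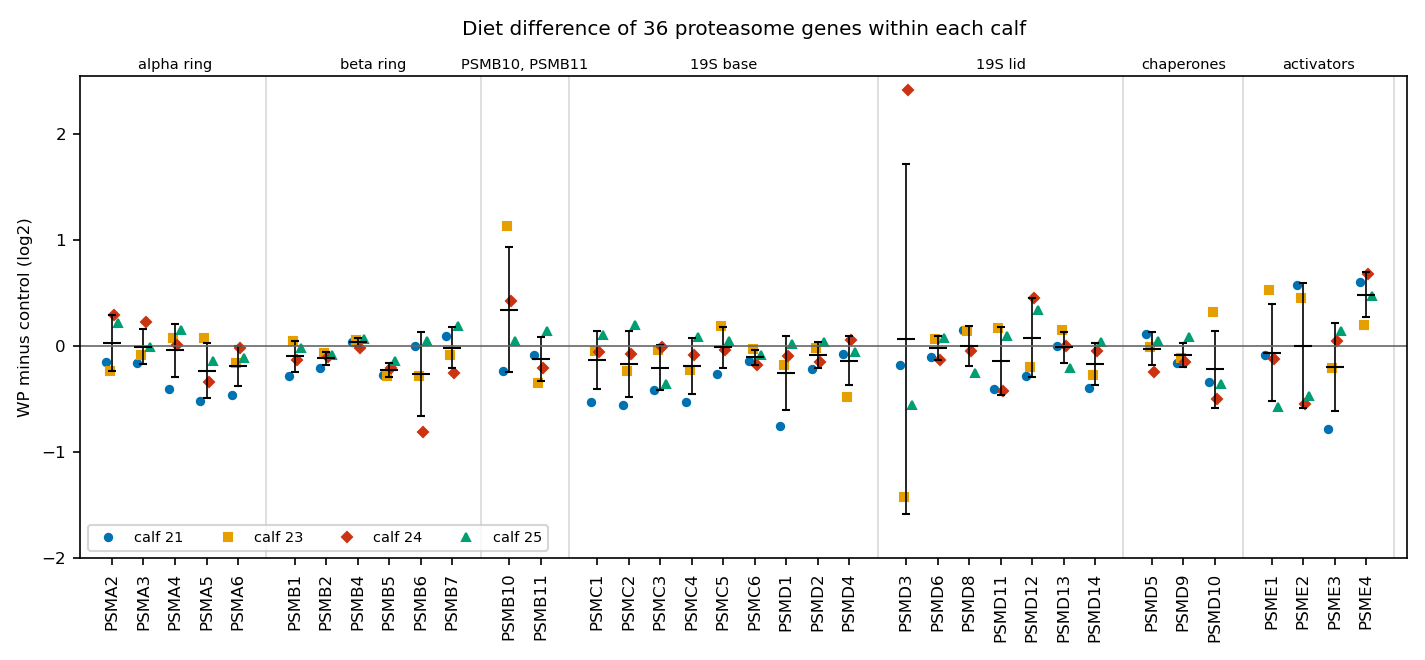
WP minus control (log2) for the 36 tested proteasome genes, by role. Coloured points are the 4 calves, and the black bar and whiskers are the mean and the SD of the 4 differences. The calf 21 points of the 19S base all lie below 0, those of PSME4 lie above 0 in each calf, and PSMD3 has the widest spread.

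The share of genes lower on WP in all 4 calves at once was larger for the proteasome than for all probes. The share higher in all 4 was smaller. These counts are small and were not tested. PSMA6, PSMB2, PSMB5, PSMC3 and PSMC6 were lower on WP in 4 of 4 calves, 5 genes of 36, where 5.39% of all probes were. PSME4 alone was higher in 4 of 4 (11.9% of all probes). The 4 WP arrays lay wholly below the 4 control arrays for PSMA6 and PSMB5 (1.19% of all probes) and wholly above them for PSME4 (3.65%).

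The 95% interval of the diet difference lay within 1 log2 of 0 for 35 of the 36 genes, against 75.2% of all probes, with PSMD3 as the exception. It lay within 0.5 log2 for 17 genes (31.5% of all probes). The median SD of the 4 calf differences was 0.21 for the proteasome genes and 0.35 for all probes. This spread went with level: from a level of 2 upwards it was 0.19 for the 22 members and 0.24 for all probes, between 0 and 2 it was 0.24 for the 6 members and for all probes alike, and below -2 it was 0.59 for all probes.

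The alpha ring forms the outer gate of the core, and 4 of its 5 tested genes were lower on WP, with a median of -0.040. The 2 of smallest p were PSMA5 and PSMA6. PSMA5 read 4.20, 4.11, 4.15 and 4.31 on WP and 4.72, 4.03, 4.48 and 4.45 on control (here and below in the order calf 21, 23, 24, 25). Its groups overlapped through the low control value of calf 23, and the difference was -0.23 ± 0.26 (SD, n = 4 calves; limma adjusted p = 0.667).

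PSMA6 read 4.04, 4.32, 4.33 and 4.33 on WP and 4.50, 4.48, 4.34 and 4.45 on control. The groups did not overlap, yet calf 24 had nearly the same value on both diets and calf 21 supplied the largest step. The difference was -0.19 ± 0.19 (SD, n = 4; limma adjusted p = 0.678). PSMA2, PSMA3 and PSMA4 lay between -0.040 and 0.032.

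Of the beta ring, 5 of 6 tested genes were lower on WP, with a median of -0.10. PSMB5, which carries the chymotrypsin-like site, read 3.89, 3.86, 4.05 and 3.96 on WP and 4.16, 4.15, 4.25 and 4.10 on control. The 4 calf differences lay between -0.29 and -0.14, and the groups did not overlap. The difference was -0.22 ± 0.066 (SD, n = 4). The fit, which moderates the spread with that of all probes, gave an SE of 0.11 and a 95% interval of -0.50 to 0.055 (limma adjusted p = 0.658).

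The other catalytic genes had calf differences of both signs. PSMB7, of the trypsin-like site, gave 4.82, 4.64, 4.59 and 4.87 on WP and 4.73, 4.73, 4.85 and 4.67 on control, a difference of -0.013 ± 0.20 (SD, n = 4; limma adjusted p = 0.978). PSMB6, of the caspase-like site, gave -3.24, -4.07, -4.44 and -3.50 on WP and -3.24, -3.78, -3.62 and -3.55 on control. Its difference of -0.26 ± 0.40 (SD, n = 4; limma adjusted p = 0.678) came mainly from the WP array of calf 24, where the probe was not well above background, and it turned to 0.074 with normexp background correction. Whether this EST-derived probe reads the sense strand of the transcript was not settled here, so its values may not be the level of PSMB6 mRNA. The same limit holds for its part in the counts and medians of the beta ring, the 20S core and all 36 tested genes.

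Among the non-catalytic beta genes, PSMB4 had nearly the same value on both diets in each calf: it read 5.09, 5.03, 4.96 and 4.97 on WP and 5.05, 4.97, 4.97 and 4.90 on control. Its difference was 0.039 ± 0.036 (SD, n = 4), with a 95% interval of -0.24 to 0.31. PSMB2 differed by -0.11 ± 0.059 and PSMB1 by -0.093 ± 0.15 (SD, n = 4 each).

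**Figure D2:**
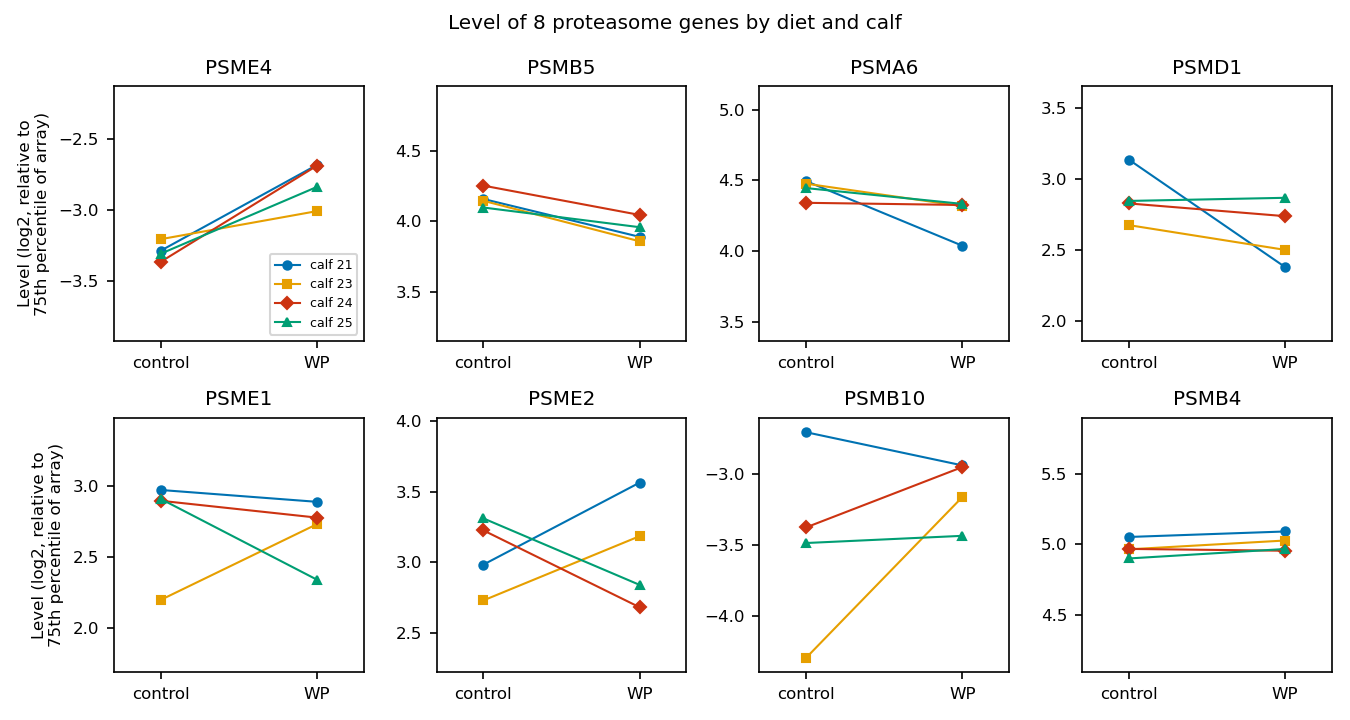
Level (log2, relative to the 75th percentile of the array) of 8 proteasome genes on the control and WP diets. Each line joins the 2 arrays of 1 calf, and every panel spans 1.8 log2. PSME4 goes up and PSMB5 goes down in each of the 4 calves, while the lines of PSME1, PSME2 and PSMB10 cross.

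PSMB10, the inducible subunit that replaces the trypsin-like one when interferon gamma acts, read -2.94, -3.16, -2.95 and -3.44 on WP and -2.71, -4.30, -3.38 and -3.49 on control. The control arrays spread over more than the WP arrays, from the high value of calf 21 to the low one of calf 23. The difference was 0.34 ± 0.59 (SD, n = 4; limma adjusted p = 0.678). It was 0.081 without calf 23 and -0.11 with quantile scaling.

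PSMB11, whose protein belongs to the proteasome of the thymic cortex, read -3.11, -3.66, -3.52 and -3.15 on WP and -3.03, -3.31, -3.31 and -3.30 on control. The difference was -0.12 ± 0.21 (SD, n = 4; limma adjusted p = 0.765), and 0.072 with normexp correction. PSMB11 was well above background on all 8 arrays.

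The 2 inducible subunits left out by the naming rule bear on PSMB10. PSMB8 read -0.12, 0.10, 0.31 and -0.49 on WP and 0.81, -0.88, -0.000059 and -0.64 on control, so the difference was -0.93 in calf 21 and 0.98 in calf 23. Over the 8 arrays PSMB8 and PSMB10 had r = 0.87, a description over arrays that share calves and a slide. PSMB9 was well above background on 1 array only, the WP array of calf 24. Its probe came from an EST or other GenBank entry, and its dim signal does not show that the transcript was absent.

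All 9 genes of the 19S base were lower on WP, with a median of -0.14 and a range of -0.25 to -0.011. The calf medians were -0.41, -0.047, -0.074 and 0.044 for calves 21, 23, 24 and 25, and 9, 8, 8 and 3 of the 9 genes were lower in them. Thus all 9 base genes were lower on WP in calf 21, whereas in calf 25 most were not. Both arrays of calf 21 stood at the ends of the range: the median deviation of the base genes from their own means over the 8 arrays was 0.29 on its control array, the highest, and -0.18 on its WP array, the lowest. None of the 9 reached an unadjusted p under 0.05.

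PSMD1, a large scaffold protein of the base, read 2.38, 2.50, 2.74 and 2.87 on WP and 3.14, 2.67, 2.83 and 2.84 on control. Its difference was -0.25 ± 0.35 (SD, n = 4; limma adjusted p = 0.676), with the 2 arrays of calf 21 as the lowest and the highest of all 8. PSMC3, an ATPase subunit, read 0.064, 0.23, 0.23 and -0.19 on WP and 0.47, 0.26, 0.24 and 0.16 on control, a difference of -0.20 ± 0.21 (SD, n = 4; limma adjusted p = 0.672). The steps of calves 23 and 24 were close to 0, and those of calves 21 and 25 were not.

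The other ATPase genes PSMC1, PSMC2, PSMC4, PSMC5 and PSMC6 differed by -0.19 to -0.011, and PSMD2, the second scaffold, by -0.085. PSMD4, a receptor for ubiquitin chains, differed by -0.14 ± 0.23 (SD, n = 4), with the largest step in calf 23 (-0.48).

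**Figure D3:**
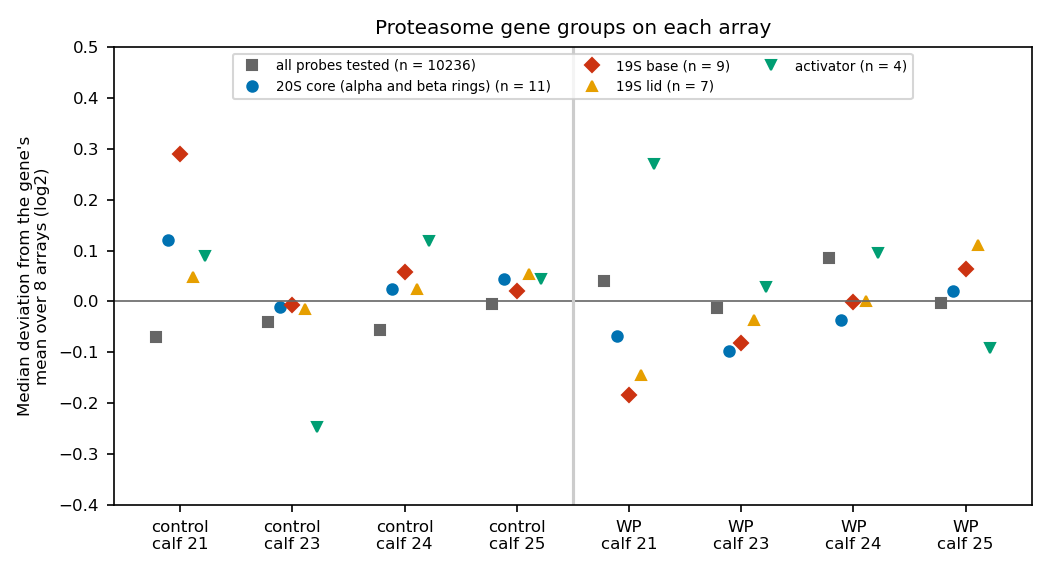
Median deviation of each gene group from the genes' own means over the 8 arrays (log2), by array, with all tested probes for comparison. The control array of calf 21 carries the highest value of the 19S base (0.29) and the WP array of the same calf its lowest (-0.18).

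Markers of other cells also varied between the arrays of calf 21. On its control array the summed level was 11.9 for macrophage and dendritic markers, against 4.02 to 8.44 on the other 7 arrays, and 4.79 for B and plasma cell markers, against 2.45 to 3.53. Fibroblast and connective tissue markers summed to 39.3 there and to 18.1 on the WP array of the same calf, with the other arrays between 9.96 and 43.2. T and NK cell markers summed to 1.81 there and to 1.79 on the WP array of calf 24, with the other arrays between 0.46 and 1.07, and epithelial markers to 553 and 515 on the control and WP arrays of calf 21. The part of these cells in the values of calf 21 was not tested.

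The lid had no common direction: 4 of 7 tested genes were lower on WP, with a median of -0.011 and calf medians of -0.18, 0.072, -0.041 and 0.039. PSMD14, the enzyme that cuts ubiquitin from the substrate, read 2.04, 2.18, 2.35 and 2.46 on WP and 2.43, 2.45, 2.39 and 2.42 on control. Its control values lay close together, with the WP values below them in 3 calves, and the difference was -0.17 ± 0.20 (SD, n = 4; limma adjusted p = 0.692). PSMD11, a scaffold of the lid, gave -0.14 ± 0.32 (SD, n = 4; limma adjusted p = 0.779), with calves 21 and 24 lower and calves 23 and 25 higher on WP.

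PSMD6, PSMD8, PSMD12 and PSMD13, subunits of the horseshoe of the lid, lay between -0.021 and 0.080. PSMD3, of the same horseshoe, read -4.34, -5.53, -2.23 and -4.56 on WP and -4.16, -4.11, -4.65 and -4.00 on control. The WP arrays of calves 24 and 23 were the highest and the lowest of all 8, and the probe was well above background on all but the latter. The difference was 0.065 ± 1.65 (SD, n = 4), with a 95% interval of -1.55 to 1.68.

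The 3 chaperones that assemble the base were all lower on WP, with a median of -0.082. PSMD10, also known as gankyrin, read -0.41, -0.42, -0.94 and -0.59 on WP and -0.068, -0.74, -0.44 and -0.23 on control. Calf 23 ran against the other calves, and the difference was -0.22 ± 0.37 (SD, n = 4; limma adjusted p = 0.696). PSMD9 gave -0.082 ± 0.11 and PSMD5 -0.022 ± 0.16 (SD, n = 4 each; limma adjusted p = 0.816 and 0.960).

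Role groups were also set against each other within each calf. Base minus lid was -0.23, -0.12, -0.033 and 0.0048 in calves 21, 23, 24 and 25, a mean of -0.094 ± 0.10 (SD, n = 4). The 19S particle minus the 20S core was 0.017 ± 0.057, and activators minus core 0.19 ± 0.29 (SD, n = 4 each), with calves 21 and 23 at 0.45 and 0.40 and calf 25 at -0.16. An exact sign-flip test over 4 calves cannot reach the threshold of 0.05, so these are descriptions.

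PSME4 encodes PA200, an activator that caps the core without ATP. It was the only proteasome gene with a 95% interval clear of 0. The levels were -2.68, -3.01, -2.69 and -2.84 on WP and -3.29, -3.20, -3.36 and -3.31 on control. All WP arrays were above all control arrays, and the control values lay close together. The difference was 0.49 ± 0.21 (SD, n = 4; SE 0.13, 95% interval 0.15 to 0.83), a signal 1.40 times as high on WP. With a limma p of 0.0139 it ranked 130 of 10236 probes, and its adjusted p was 0.658, between 0.346 and 0.938 over the alternatives.

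The size of the PSME4 difference depended on the scaling: it was 0.12 with quantile scaling, 0.27 with cyclic loess, 0.25 with array median scaling and 0.26 with normexp correction. The unadjusted p was under 0.05 in 10 of 17 alternatives, not with those 4 settings, within slide row 2, or without calf 21 (0.45) or calf 24 (0.42), and the direction was the same in all 17.

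PSME1 and PSME2 encode the alpha and beta chains of PA28, the activator that interferon gamma induces. PSME1 read 2.89, 2.73, 2.78 and 2.34 on WP and 2.97, 2.20, 2.90 and 2.91 on control. Calf 23 was low on control and calf 25 low on WP, which left a difference of -0.059 ± 0.45 (SD, n = 4; limma adjusted p = 0.932), and 0.11 without calf 25.

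PSME2 read 3.56, 3.19, 2.68 and 2.84 on WP and 2.98, 2.73, 3.23 and 3.31 on control. Calves 21 and 23 gave differences of 0.58 and 0.45, whereas calves 24 and 25 gave -0.54 and -0.47. The diet difference was 0.0050 ± 0.59 (SD, n = 4; limma adjusted p = 0.996). This opposition coincided with slide row. The WP arrays of calves 21 and 23 and the control arrays of calves 24 and 25 were in row 1. The other 4 arrays were in row 2, and each calf had 1 array in each row. Slide row and a diet difference of opposite sign in these pairs of calves cannot be told apart here. The part of diet order, which is not given, was not tested.

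PSME3, of the nuclear PA28 gamma, read -0.12, 0.19, 0.44 and 0.35 on WP and 0.66, 0.39, 0.39 and 0.20 on control. The 2 arrays of calf 21 were the lowest and the highest, and the difference was -0.20 ± 0.42 (SD, n = 4; limma adjusted p = 0.740).

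Slide row was tested with calf and diet in the fit. With this layout a row difference cannot be told apart from a diet difference of opposite sign in the 2 pairs of calves. For row 1 minus row 2, PSME2 gave 0.51 (limma adjusted p = 0.298) and PSMD12 -0.32 (limma adjusted p = 0.357). These were 2 of 36 genes at an unadjusted p under 0.05, against 12.9% of all probes, and none passed after adjustment. Calves 21 and 23 moved opposite to calves 24 and 25 for 5 genes (PSMA2, PSMD8, PSMD12, PSME2 and PSME3), and for 21% of all probes.

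In the F test over calves, with diet in the fit, 1 gene of 36 had an unadjusted p under 0.05, against 4.98% of all probes, and none passed after adjustment (0.00977% of all probes). The count is near the share of all probes. That gene was PSMD4 (limma adjusted p = 0.931), with calf 23 low on both diets at -0.19 and 0.29 and the other 6 arrays between 0.49 and 0.84.

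The 4 untested genes, and PSMB6 and PSMD3, had probes above background on fewer than 8 arrays and are best seen by array. PSMA1, PSMA7 and PSMB3 were well above background on 0 arrays, and PSMD7 on 1, the WP array of calf 24. On that array PSMA1 read -3.89, PSMA7 -3.97 and PSMD7 -3.57, while the other 7 arrays lay between -7.86 and -6.07 for these 3 genes. The high values were thus on the array whose negative controls were raised; their part in these values was not tested. The probe source also differed: 34 of 34 members with a probe from RefSeq were tested, but 1 of 5 with a probe from an EST or other GenBank entry, against 71.9% and 56.4% of such probes on the whole array. Whether the probes of PSMA1, PSMA7, PSMB3 and PSMD7 read the sense strand was not settled, so their dim signal does not show low expression. No diet comparison is given for these 4 genes.

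**Figure D4:**
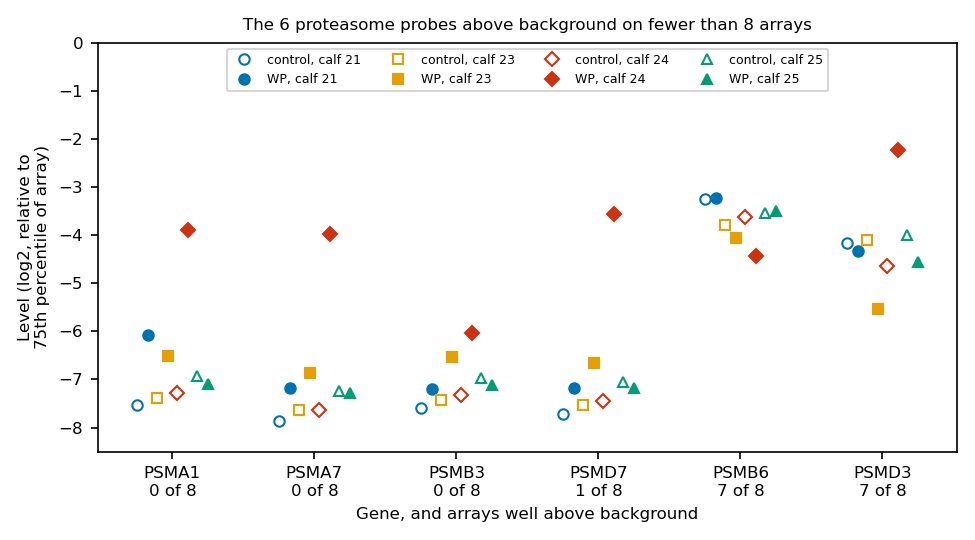
Levels (log2, relative to the 75th percentile of the array) of the 6 proteasome genes whose probes were well above background on fewer than 8 arrays, with that number under each name. Open symbols are control and filled symbols WP arrays. The WP array of calf 24 stands above all others for PSMA1, PSMA7, PSMB3, PSMD7 and PSMD3 and is the lowest for PSMB6.

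The diet difference of all probes varied with their level, so the members were also read by level. Below a level of -2 the median difference of all 3988 probes was 0.27, and 0.74 in calf 24 alone, and 5 members lay there: PSMB6, PSMB10, PSMB11, PSMD3 and PSME4. In that band 5.47% of all probes had every WP array above every control array, as PSME4 had. From a level of 2 upwards the median of all 1672 probes was -0.014, with 54.5% lower on WP, and 19 of the 22 members there were lower, with a median of -0.089. Between 0 and 2, all 6 members were lower, with a median of -0.13, where 46% of all 2067 probes were lower. From -2 to 0, 1 of 3 members was lower, with a median of 0.032 (39.7% of all probes lower). Below -2, 2 of 5 members were lower, with a median of 0.065 (19.7% of all probes lower). In calf 21 the members from 2 upwards had a median of -0.21 and all probes of that band 0.024.

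**Figure D5:**
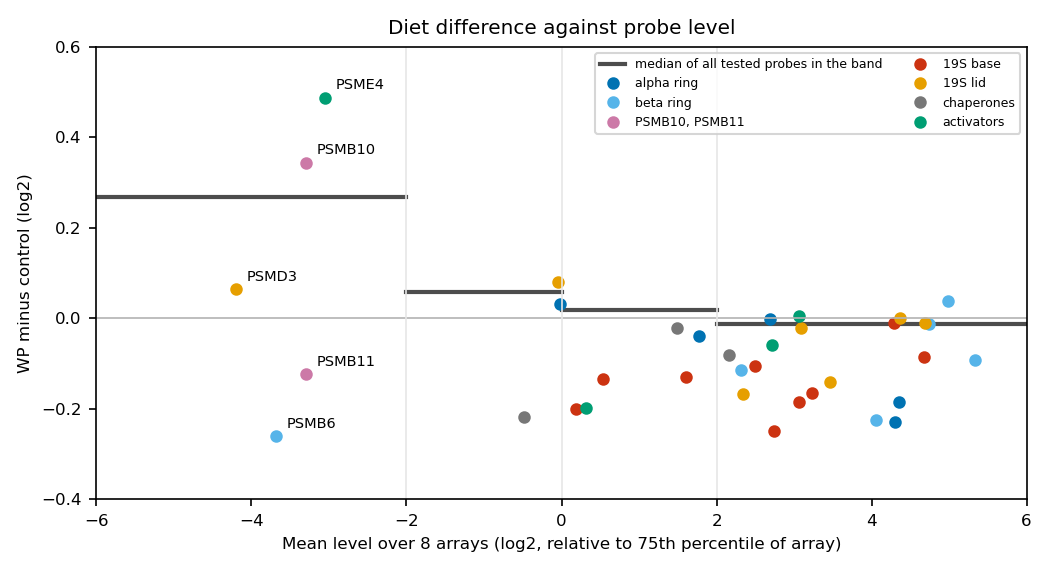
WP minus control (log2) against the mean level over 8 arrays for the 36 tested proteasome genes, coloured by role. Horizontal bars are the medians of all tested probes in 4 bands of level, with edges at -2, 0 and 2. The bars fall from 0.27 to -0.014 with rising level, and most members above a level of 0 lie below them.

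Across the 8 arrays the genes of the base varied together more than those of the lid. Over the 34 members well above background on all arrays, the median pairwise r was 0.19, and 25.0% of pairs were over 0.5, against 0.042 and 16.0% for all probes. Within the base the median r was 0.49, and within the lid -0.27. These are descriptions over 8 arrays that share calves, scaling and a slide.

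PSMD1 followed the median of the other members most closely (r = 0.95), ahead of PSMD2 (0.91), PSMC2 (0.89), PSMC4 (0.88) and PSMA5 (0.87). PSMC2 and PSMC4 had r = 0.98 with each other. PSME4 (-0.60) and PSMD8 (-0.58) ran against the rest. PSME1 and PSME2, which form 1 complex, had r = 0.61 with each other.

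Further genes of the pathway were read from lists. Of other 26S subunits, assembly factors and the inhibitor, 9 of 10 on the array were tested, 7 were lower on WP, and the median was -0.12. POMP, which matures the core, differed by -0.15 ± 0.31, and ADRM1, a ubiquitin receptor of the base, by -0.13 ± 0.65 (SD, n = 4 each; limma adjusted p = 0.766 and 0.884). PSMF1, an inhibitor of the core, was well above background on 0 arrays. Its probe also came from an EST or other GenBank entry, so this does not show that the transcript was absent.

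Of ubiquitin, shuttle and deubiquitinase genes that act at the proteasome, 16 of 17 were tested and 10 were lower, with a median of -0.089. In 4 of 4 calves 4 of the 16 were lower (USP14, UCHL5, UFD1 and TXNL1; 5.39% of all probes) and 1 was higher (RAD23B, 0.26; 11.9%), UFD1, TXNL1 and RAD23B being named after their values were seen. The deubiquitinases USP14 and UCHL5 had differences of -0.19 ± 0.14 and -0.17 ± 0.17 (SD, n = 4 each; limma adjusted p = 0.667 and 0.678). UFD1, a partner of the segregase VCP, differed by -0.27 ± 0.041 (SD, n = 4; limma adjusted p = 0.658). For UFD1 and for TXNL1 all 4 WP arrays lay below all 4 control arrays, as they did for 1.19% of all probes. TXNL1, a thioredoxin-like protein bound to the 19S particle, was the only gene of that list with an unadjusted p under 0.05. It differed by -0.31 ± 0.16 (SD, n = 4; limma adjusted p = 0.658), and 1.75% of all probes were lower at that threshold.

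The transcription factor NRF1, encoded by NFE2L1, raises proteasome genes when degradation is impaired. NFE2L1 was well above background on 1 array and was not tested. Of its route 4 of 7 genes were tested and all 4 were higher on WP, with a median of 0.14, where 64.4% of all probes were higher. Of interferon gamma response genes 7 of 10 were tested and 5 were higher, with a median of 0.12. Over all probes 64.4% were higher, with a median of 0.087. The counts of both lists are small, and their distance from all probes was not tested. No gene of these lists passed after adjustment.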

How the data were processed

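Rumen epithelium RNA (500 ng of total RNA per array and Cy3 label, per the labels' protocols) was hybridised to 8 single-colour Agilent arrays of design 072598. The deposited scanner files hold spot intensity that the scanner software (Feature Extraction, version 11.0.1.1 in the file headers and 9.5 in the submitters' processing notes) had corrected for background. The value table that the authors deposited is in log2. Compared with the scanner files, a column of it equals the log2 processed signal less 1 constant per array, with no centring by gene (column medians -3.10 to -2.27), and it served as an alternative.

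Here 536 control spots per array and 97 outlier-flagged spots were left out, log2 processed signal was averaged per probe, and each array's 75th percentile was subtracted. Probes well above background on 4 or more arrays (10236 of 15008) were tested in R 4.3.3 with lmFit and eBayes of limma 3.58.1 (two-sided, threshold 0.05, Benjamini-Hochberg over all probes), with calf as a block. The pairing comes from the calf numbers in the labels and the cross-over stated in the series text: the deviations of a calf's 2 arrays correlated at 0.0084, 0.195, 0.0597 and 0.0471. The fit was tested on simulated data. Summaries used pandas 2.3.3. The SD given is taken over the 4 calf differences and the SE from the fit.

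The members and all lists were chosen with earlier results of these data known, so list counts and medians are descriptions. Named in full were, per role, the 2 members of smallest p, all inducible and activator genes, the catalytic subunits and 8 related genes. Other genes named were chosen after their values were seen. Level bands were also chosen after seeing the data. Other alternatives covered background correction, scaling, the dim-probe filter, the block, slide row, the prior and each calf left out. Promoter motifs and protein sequences were not analysed here.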

Additional observations from a re-analysis of the deposited data

Results flagged for a closer look

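Among the genes described, 44 groups of 4 arrays of 1 diet were screened for a value far from the others, and 4 groups were set apart, where chance gives about 1 in 20. PSMA6 was lowest on the WP array of calf 21, at 4.0393, with the other WP arrays between 4.3185 and 4.3347. PSMB11 was highest on the control array of calf 21, at -3.0256, with the others between -3.3133 and -3.298. PSME1 was lowest on the control array of calf 23, at 2.1976, with the others between 2.8979 and 2.9741. ADRM1 was lowest on the control array of calf 25, at -2.8062, with the others between -2.0913 and -1.984.

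PSMD7 was not tested, and its probe was well above background on the WP array of calf 24 alone, at -3.5664, with the other 7 arrays between -7.7227 and -6.665. That array is also the one with raised negative controls, and their part in this value was not tested.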

How the results depend on the processing

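No proteasome gene passed the adjusted threshold in limma under any of the 17 alternatives. The number lower on WP ran from 24 to 34 of the genes tested. The number at an unadjusted p under 0.05 was 1 as reported, 0 with quantile, cyclic loess or array median scaling and within slide row 2, 2 within row 1 (PSME4 and PSMD1), and 0 to 1 with each calf left out (0 without calf 21 or 24). With normexp correction the 1 gene was PSMB5 (-0.30), not PSME4. The fits within a slide row hold no pairing. They set the WP arrays of 2 calves against the control arrays of the other 2, so diet and calf cannot be told apart in them. Array median scaling moved the median of all probes to -0.15. With it the median difference was -0.33 for the proteasome genes, -0.28 for the alpha ring, -0.34 for the beta ring, -0.13 for PSMB10 and PSMB11, -0.38 for the base, -0.25 for the lid, -0.32 for the chaperones, -0.27 for the activators, -0.36 for other 26S genes, -0.33 for ubiquitin genes and -0.096 for the NRF1 route. PSMB10 and PSMB11 gave -0.41 with quantile and -0.15 with cyclic loess scaling. The lid gave -0.16 within row 1, other 26S genes -0.030 within row 2, and the NRF1 route 0.49 with no filter on dim probes, where 7 genes entered.

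Several small differences turned in sign. With normexp correction PSMB6 gave 0.074, PSMB11 0.072, PSME2 -0.047 and ADRM1 0.080. With quantile scaling PSMB7 gave 0.065 and PSMB10 -0.11, and with array median scaling PSME2 gave -0.24 and PSMB8 -0.11. Within row 2 PSMB7 gave 0.0034, PSME2 -0.096, PSMB8 -0.054 and ADRM1 0.038. With a calf left out, values ran from -0.082 to 0.067 for PSMB7 (0.011 without calf 23), from -0.26 to 0.11 for PSME1 (without calf 25), from -0.19 to 0.19 for PSME2 (-0.14 without calf 23), from -0.16 (without calf 23) to 0.48 for PSMB8, and up to 0.066 for ADRM1 (0.045 without calf 23). The cause was not tested. The other 353 values of named genes kept their direction and stayed on the same side of the adjusted threshold. At the unadjusted 0.05, PSME4 was past it in 10 of 17 alternatives, PSMB5 in 1 (normexp) and PSMD1 in 1 (row 1).

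Without the replicate block the number of proteasome genes at an unadjusted p under 0.05 was again 1 (PSME4, 0.49, limma adjusted p = 0.631), and the block changed no adjusted call. The calf F test had 0 genes at an unadjusted p under 0.05 with array median scaling or no filter, and 0 to 2 with each calf left out, and the row test 1 to 2. The interval of PSMD3 and the 4 untested probes mark what the signal over background limits.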
